A study of Mus musculus with 6 samples.

Results

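The variable (V) segments of the immunoglobulin heavy chain were followed in 6 RNA-seq libraries from aged mice. A V segment was included when its gene name began with Ighv and its counts summed to at least 30 over the 6 libraries, and 93 of the 125 Ighv genes in the table of 32000 genes met this. The study asked how a long-term high-fat diet to old age alters bone and its surroundings in mice. All libraries were labelled as total RNA of cortical bone from male C57BL/6J mice aged 18 months. The CD group (CD 1, CD 2 and CD 4) had received the control chow for 12 months and the HFD group (HFD 2, HFD 3 and HFD 4) the high-fat diet for 12 months, and no genetic alteration or drug was listed for either group. The study's methods describe marrow cells of femur and tibia and its results describe bone particles, so the sampled material is not named alike in all sources. Whether the libraries stem from different mice is not stated in the labels, and all p-values therefore refer to the spread among these libraries.

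An antibody heavy chain is assembled in the developing B cell, where a V segment is joined to a D and a J segment. The chosen V segment encodes most of the antigen-binding part of the chain, and the descendants of a B cell keep it. Bone marrow is the site where B cells arise in the adult mouse and a place where plasma cells, which hold very large amounts of immunoglobulin mRNA, persist. The V segments are grouped into families by sequence, and the first number of a segment's name gives its family. Because few plasma cells can supply much of the message, the share of a V segment in bulk RNA is a share of transcripts and not of cells, and fewer cells of a type cannot be told apart from less RNA per cell.

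Different V segments led the 6 libraries, and the reference sequences of these leaders and of Ighv6-6 are shown because most of the results below turn on them. On GRCm38 all 7 lie on the minus strand of chromosome 12, with Ighv12-3 at chr12:114366521-114366954, Ighv6-3 at chr12:114391712-114392169, Ighv3-6 at chr12:114288152-114288582, Ighv5-12 at chr12:113702124-113702578, Ighv1-55 at chr12:115208095-115208591, Ighv14-4 at chr12:114176438-114176867 and Ighv6-6 at chr12:114434788-114435244. Shown are the last 295 coding bases of each reference transcript (GENCODE M21), 5′ to 3′, which leave out the leader or most of it, and capitals mark each base that differs from the most similar other annotated Ighv segment. This neighbour was Ighv3-2 for Ighv12-3, Ighv6-6 for Ighv6-3, Ighv3-1 for Ighv3-6, Ighv5-4 for Ighv5-12, Ighv1-62 for Ighv1-55, Ighv14-1 for Ighv14-4 and Ighv6-5 for Ighv6-6.
Ighv12-3: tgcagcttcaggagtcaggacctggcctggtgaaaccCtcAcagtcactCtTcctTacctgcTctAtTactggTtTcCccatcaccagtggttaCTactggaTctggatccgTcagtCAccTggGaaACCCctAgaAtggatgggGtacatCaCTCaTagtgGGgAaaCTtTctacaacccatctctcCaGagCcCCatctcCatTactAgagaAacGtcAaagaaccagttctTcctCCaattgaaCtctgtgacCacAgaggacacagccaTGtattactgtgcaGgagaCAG
Ighv6-3: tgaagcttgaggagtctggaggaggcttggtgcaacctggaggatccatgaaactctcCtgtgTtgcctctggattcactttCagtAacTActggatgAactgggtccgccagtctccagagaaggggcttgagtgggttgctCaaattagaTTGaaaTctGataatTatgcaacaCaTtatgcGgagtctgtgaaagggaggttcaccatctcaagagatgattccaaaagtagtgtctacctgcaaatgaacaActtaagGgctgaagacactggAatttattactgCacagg
Ighv3-6: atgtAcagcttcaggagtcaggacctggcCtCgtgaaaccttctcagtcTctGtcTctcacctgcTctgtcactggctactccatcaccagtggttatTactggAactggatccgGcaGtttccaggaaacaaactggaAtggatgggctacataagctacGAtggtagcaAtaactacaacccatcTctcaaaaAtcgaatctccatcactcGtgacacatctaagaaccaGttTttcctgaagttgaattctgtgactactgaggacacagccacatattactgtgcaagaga
Ighv5-12: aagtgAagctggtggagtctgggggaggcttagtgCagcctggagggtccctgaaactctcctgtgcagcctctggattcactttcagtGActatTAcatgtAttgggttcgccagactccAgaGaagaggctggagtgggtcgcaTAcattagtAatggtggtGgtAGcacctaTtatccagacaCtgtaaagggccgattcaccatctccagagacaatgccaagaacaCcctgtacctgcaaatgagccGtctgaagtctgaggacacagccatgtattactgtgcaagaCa
Ighv1-55: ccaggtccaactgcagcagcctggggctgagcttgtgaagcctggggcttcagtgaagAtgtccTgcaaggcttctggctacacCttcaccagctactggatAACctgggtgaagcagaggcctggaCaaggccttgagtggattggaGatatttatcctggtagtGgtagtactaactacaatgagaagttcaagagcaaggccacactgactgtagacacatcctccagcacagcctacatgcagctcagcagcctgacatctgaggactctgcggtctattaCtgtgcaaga
Ighv14-4: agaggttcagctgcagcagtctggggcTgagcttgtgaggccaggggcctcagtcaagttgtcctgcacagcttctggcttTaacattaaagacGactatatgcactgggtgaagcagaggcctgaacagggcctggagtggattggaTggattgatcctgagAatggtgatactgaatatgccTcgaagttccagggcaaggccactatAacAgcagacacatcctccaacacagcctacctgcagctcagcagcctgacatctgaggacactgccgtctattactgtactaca
Ighv6-6: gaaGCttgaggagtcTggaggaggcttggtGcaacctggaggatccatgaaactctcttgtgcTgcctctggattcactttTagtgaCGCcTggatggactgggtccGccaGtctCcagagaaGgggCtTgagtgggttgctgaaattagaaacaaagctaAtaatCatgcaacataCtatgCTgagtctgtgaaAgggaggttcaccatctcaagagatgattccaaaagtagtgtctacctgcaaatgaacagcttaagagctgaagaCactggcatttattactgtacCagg
Ighv12-3 was the most distinct of these 7 sequences, at 78.8% identity to its neighbour with 75 differing bases over its 353 coding bases. Ighv14-4 was the closest to another segment, at 97.4% with 9 differing bases in 351, and Ighv1-55 followed at 96.9% with 11. Over the 93 segments the median identity to the nearest segment was 95.4%, and 63 segments shared no stretch of 100 bases with any other annotated Ighv transcript.

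The libraries held 54489826 to 61580025 counts each. Bone genes such as Col1a1 and Bglap were present in all 6 libraries. The summed level of the 10-gene bone list is given in CPM (counts scaled to library size and between libraries by the trimmed mean of M values). It ran from 1540 CPM in HFD 3 to 74757 CPM in CD 4. Of the 10, 9 had a negative fitted log2 fold change (52.5% of all genes did), and 2 were lower without overlap between groups (10.2% of all genes were). With edgeR, 7 were lower at an unadjusted p under 0.05 (7.2% of all genes were) and 0 were called at an adjusted p under 0.05. A list of 24 intestinal epithelium genes summed to 17.2 CPM in CD 1 and 21.7 CPM in CD 2, against 239 CPM in CD 4 and 230 to 315 CPM in the HFD libraries. The list was thus lowest in CD 1 and CD 2. Beyond the fits given below, with the list as covariate and without CD 1 and CD 2, its part in the results was not tested.

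The 93 segments carried 99.7% of all Ighv counts. They comprised 92 V genes and 1 annotated pseudogene, Ighv1-41, which held 0.190% of the members' counts. Summed counts ran from 31 to 10970 with a median of 597, and 67 segments had counts in all 6 libraries, 12 in 5, 7 in 4 and 7 in 3 or fewer. Just inside the limit were Ighv2-4 with 31 counts, Ighv1-11 with 40, and Ighv1-23 and Ighv8-5 with 48 each, and just outside were Ighv1-43 with 26, Ighv8-2 with 24 and the pseudogene Ighv1-21-1 with 20. A single library supplied over 50% of the counts of 35 segments, and for 20 of these the library was HFD 3. Without its leading library the sum would have been under 30 for 9 segments. Within the CD libraries alone it was under 30 for 12 segments, and within the HFD libraries alone for 4. More segments thus needed the HFD counts to reach the limit than needed the CD counts. The summed count thus favoured segments abundant in HFD 3, which also had the highest count of 50 of the 93 segments.

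Usage, the share of a segment in the summed count of the 93 segments in its library, was dominated by a different segment in each library. CD 1 gave 9063 Ighv counts and 3193 of them were Ighv12-3, a share of 35.2% (95% Wilson interval 34.3 to 36.2, counting error only). Ighv12-3 is known in mice from B-1 cells that bind phosphatidylcholine. Its counts in CD 2, CD 4, HFD 2, HFD 3 and HFD 4 were 13, 0, 50, 92 and 41, shares of 0.395% or less, and the 0 in CD 4 allows a share of up to 0.0504%. The second segment of CD 1 was Ighv1-26 at 15.7% and the next Ighv5-17 at 5.53%, so that 2 segments held over 50% of the Ighv counts of that library.

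CD 2, with 19827 Ighv counts, was led by Ighv6-3 with 1364 counts (6.88%, interval 6.54 to 7.24), followed by Ighv1-53 at 6.39% and Ighv8-12 at 5.72%. CD 4, the library with the fewest Ighv counts (5956), was led by Ighv3-6 with 581 counts (9.75%, interval 9.03 to 10.5), followed by Ighv1-26 at 6.77% and Ighv5-17 at 4.05%. In both libraries the leader was less dominant than in the other 4.

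HFD 2, with 12666 Ighv counts, was led by Ighv5-12 with 1542 counts (12.2%, interval 11.6 to 12.8), and this segment had 42, 25 and 65 counts in CD 1, CD 2 and CD 4 and 130 and 43 in HFD 3 and HFD 4. HFD 3, with 45159, was led by Ighv1-55 with 9395 counts (20.8%, interval 20.4 to 21.2), against 107, 392 and 184 counts in CD 1, CD 2 and CD 4 and 710 and 182 in HFD 2 and HFD 4. HFD 4, with 11930, was led by Ighv14-4 with 2192 counts (18.4%, interval 17.7 to 19.1). Ighv14-4 was also high in HFD 3 with 1890 counts and had 59 to 93 counts in the other 4 libraries, whereas Ighv5-12 and Ighv1-55 stood out in a single library each. The HFD group therefore had no common leader. The same 6 leaders were found when usage was taken from FPKM, which divides by transcript length, with leader shares from 7.09% in CD 2 to 36.1% in CD 1.

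**Figure D1:**
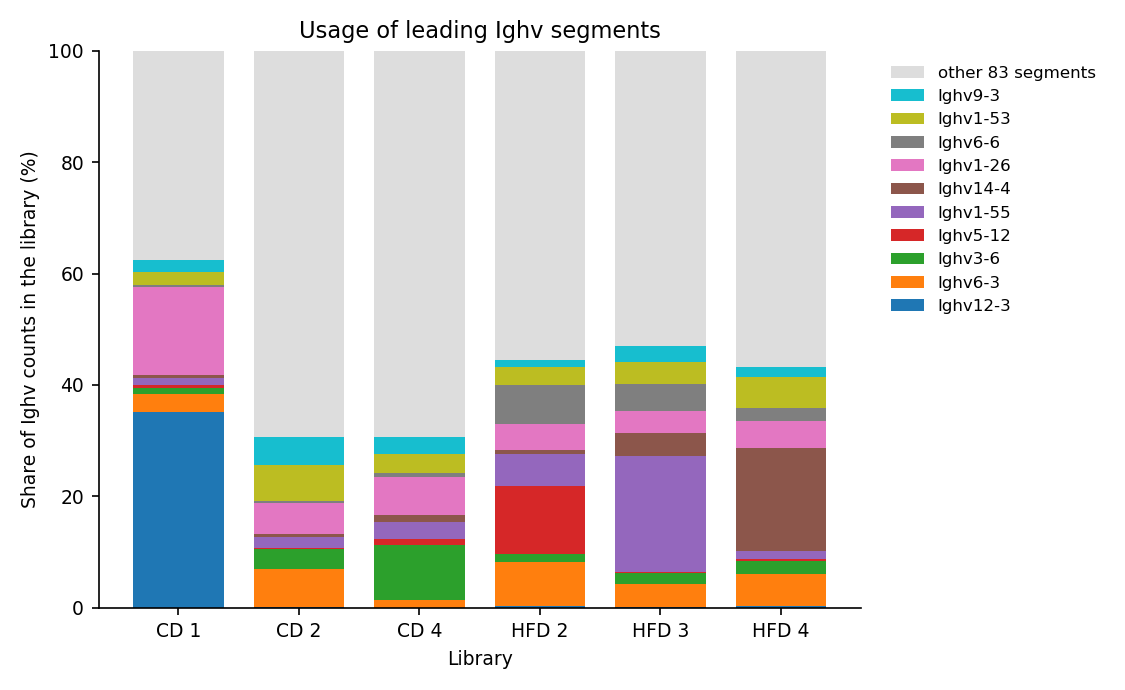
Share of each library's Ighv counts (vertical axis, percent) held by 10 segments, namely the leading segment of each library and Ighv1-26, Ighv6-6, Ighv1-53 and Ighv9-3, for the 3 CD and 3 HFD libraries; grey is the sum of the other 83 segments. Ighv12-3 fills 35.2% of CD 1 and at most 0.395% of any other library, and the largest block differs between all 6 bars.

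Evenness of usage overlapped between the diets. The effective number of segments (the exponential of the Shannon entropy of the shares, which equals the number of segments if all are used alike) was 17.2, 48.2 and 49.4 in CD 1, CD 2 and CD 4 and 39.7, 34.8 and 32.7 in HFD 2, HFD 3 and HFD 4. The means were 38.3 ± 18.3 (SD, n = 3) in CD and 35.7 ± 3.56 (SD, n = 3) in HFD. The HFD libraries all lay between CD 1, the least even library, and the other two CD libraries, the most even. The difference was -13.1 segments without CD 1, 2.42 without CD 2 and 3.04 without CD 4, so its sign rested on single libraries. With the leading segment of each library left out, the effective numbers were 29.6, 49.0 and 52.9 in CD and 43.3, 46.3 and 40.0 in HFD.

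Only 7 segments held 1% or more of usage in all 6 libraries: Ighv9-3, Ighv3-6, Ighv6-3, Ighv1-9, Ighv1-26, Ighv1-53 and Ighv1-55. Ighv1-9 was the steadiest of them, from 1.75% in CD 4 to 2.68% in HFD 2. Ighv1-53 ranged from 2.37% in CD 1 to 6.39% in CD 2. In contrast, 60 segments reached 1% in at least 1 library and 5 reached 10%, namely Ighv12-3, Ighv1-26, Ighv5-12, Ighv1-55 and Ighv14-4. Between libraries, the usage that was shared (the sum over segments of the lower of both shares) was 45.4% to 63.7% in the 6 pairs within a diet and 37.6% to 56.6% in the 9 pairs across diets, with medians of 53.0% and 53.2%. The ranges of both kinds of pair overlapped.

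The Ighv1 family, known as J558 and the largest in the mouse, had 48 members and held 39.7%, 59.4% and 52.9% of usage in CD 1, CD 2 and CD 4 and 49.8%, 58.0% and 46.2% in HFD 2, HFD 3 and HFD 4. The groups overlapped for Ighv1 and for 12 of the other 14 families. For scale, usage of single segments was higher without overlap for 4.3% and lower for 12.9%. Of all genes, taken relative to the same Ighv sum, 0.817% were higher and 6.45% lower. Neither is a like background for family sums. Family shares were not tested, and an exact permutation test of 3 against 3 libraries cannot go below p = 0.1. The Ighv6 family (Ighv6-3 and Ighv6-6) held 3.55%, 7.28% and 2.20% in CD 1, CD 2 and CD 4 and 14.9%, 8.70% and 8.07% in HFD 2, HFD 3 and HFD 4, with no overlap. The Ighv9 family of 4 segments held 3.77%, 5.96% and 5.76% in the CD libraries and 1.59%, 3.29% and 2.48% in the HFD libraries, again with no overlap and in the opposite direction. With the leading segment of each library left out of the shares, the Ighv9 family, which held none of these leaders, was at 5.83%, 6.40% and 6.38% in CD and 1.81%, 4.15% and 3.04% in HFD. For Ighv6 this gives no check, because the leader left out of CD 2 is Ighv6-3 itself.

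Among the smaller families, single libraries set the range. Ighv12, with Ighv12-3 as its only member, has been described above. Ighv14 ranged from 1.29% in CD 1 to 19.2% in HFD 4 through Ighv14-4, and Ighv3 reached 11.2% in CD 4 through Ighv3-6. Ighv11-2, like Ighv12-3 known in mice from B-1 cells that bind phosphatidylcholine, held 1.78%, 1.34% and 0.336% in CD 1, CD 2 and CD 4 and 1.29%, 1.96% and 5.35% in HFD 2, HFD 3 and HFD 4, with overlap. Its neighbour Ighv11-1 is 98.9% identical and was listed with 2 counts in all. The remaining families were led by Ighv5-17 (Ighv5), Ighv2-9 (Ighv2), Ighv7-3 (Ighv7), Ighv8-12 (Ighv8), Ighv10-1 (Ighv10), Ighv4-1 (Ighv4), Ighv13-2 (Ighv13) and Ighv15-2 (Ighv15), and the last named never exceeded 0.103% of usage.

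Position along the locus was examined because the segments lie in a row between 113578504 and 116000461 on chromosome 12 (GRCm38), with those nearest the D segments at the low coordinates. The 31 segments nearest the D segments held 17.9% to 30.3% of usage in CD and 27.2% to 40.3% in HFD. The middle 31 held 65.6%, 40.4% and 35.5% in CD 1, CD 2 and CD 4 and 33.6%, 26.2% and 30.5% in HFD 2, HFD 3 and HFD 4, without overlap. Without the leading segments these shares were 47.0%, 36.0% and 28.5% against 38.3%, 33.1% and 37.4%, and the groups overlapped. Ighv5-2, known as VH81X and as a segment near the D segments that is rearranged early in development, had 0, 18 and 10 counts in CD 1, CD 2 and CD 4 and 4, 28 and 0 in HFD 2, HFD 3 and HFD 4.

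**Figure D2:**
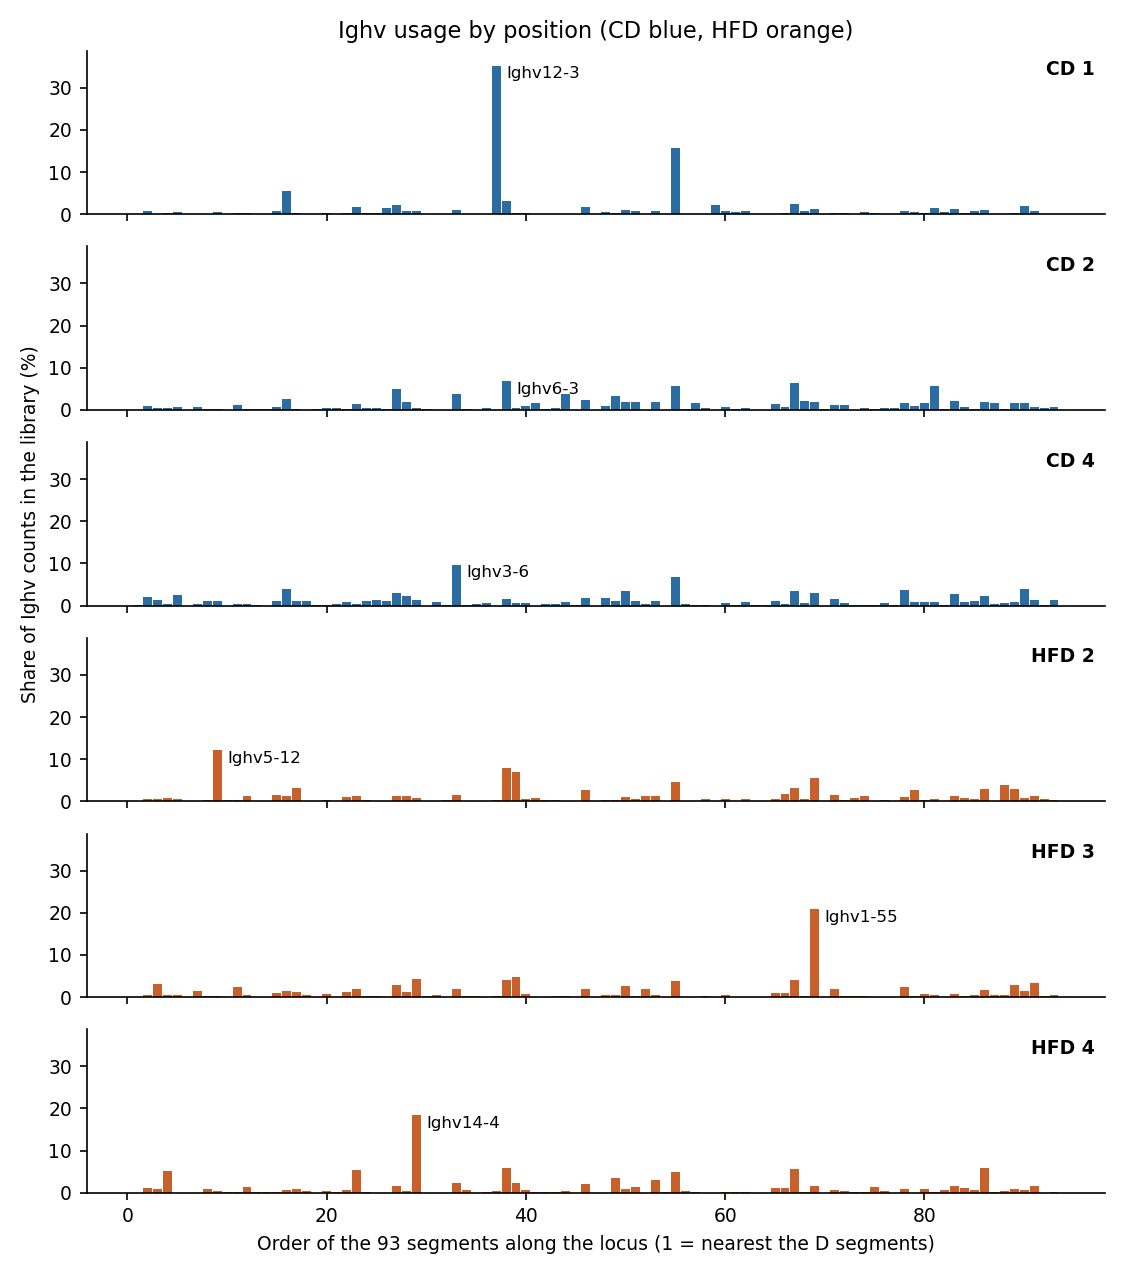
Share of each library's Ighv counts (vertical axis, percent) for the 93 segments in their order along the locus, 1 being nearest the D segments (horizontal axis), with 1 panel per library and the leading segment named. The tallest bar stands at a different place in each panel, from 35.2% in CD 1 to 6.88% in CD 2.

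The summed level of the 93 segments was 230, 289 and 103 CPM in CD 1, CD 2 and CD 4 and 184, 612 and 238 CPM in HFD 2, HFD 3 and HFD 4. HFD 3 was the highest and CD 4 the lowest, and the other 4 libraries lay between 184 and 289 CPM. The group means were 207 ± 95.4 CPM (SD, n = 3) and 345 ± 233 CPM (SD, n = 3), a log2 ratio of 0.73 with overlapping groups. The log2 ratio was 0.03 without HFD 3 and 0.41 without CD 4. These libraries were also the extremes of the bone list, lowest in HFD 3 (1540 CPM) and highest in CD 4 (74757 CPM). The part of bone content in the Ighv level was not tested. Beside the summed Ighv level, 14 of 15 B cell genes had a positive fitted log2 fold change, against 47.5% of all genes, with a median of 1.31. Of these, 5, among them the receptor subunit gene Cd79b and the surface receptor gene Cd72, were higher in HFD without overlap, against 4.97% of all genes. Of the plasma cell genes 2 were higher and 3 lower without overlap (10.2% of all genes were lower), the lower ones being Prdm1, Sdc1 and Fkbp11. Of 14 plasma cell genes tested 10 had a positive fold change (median 0.56), as had 10 of 12 genes of B cell precursors and recombination (median 0.43) and 5 of 6 T cell genes (median 0.50), and edgeR called 0 genes of these 4 lists at an adjusted p under 0.05. At an unadjusted p under 0.05, where 2.46% of all genes were higher and 7.2% lower, 6 B cell genes were higher and 0 lower, 1 plasma cell gene was higher and 2 lower, 3 precursor genes were higher and 1 lower, and 0 T cell genes passed. The B cell list summed to 168, 550 and 194 CPM in CD 1, CD 2 and CD 4 and 574, 977 and 607 CPM in HFD 2, HFD 3 and HFD 4. It was lowest in CD 1 and CD 4, and each CD library lay below each HFD library, CD 2 by a narrow margin. The part of B cell content in the segment differences was not tested. Ighm made up 66.9%, 38.0% and 29.5% of heavy chain constant counts in CD 1, CD 2 and CD 4 and 73.5%, 81.5% and 82.5% in HFD 2, HFD 3 and HFD 4, and Igha 11.8%, 39.9% and 54.5% against 9.31%, 9.09% and 8.94%.

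**Figure D3:**
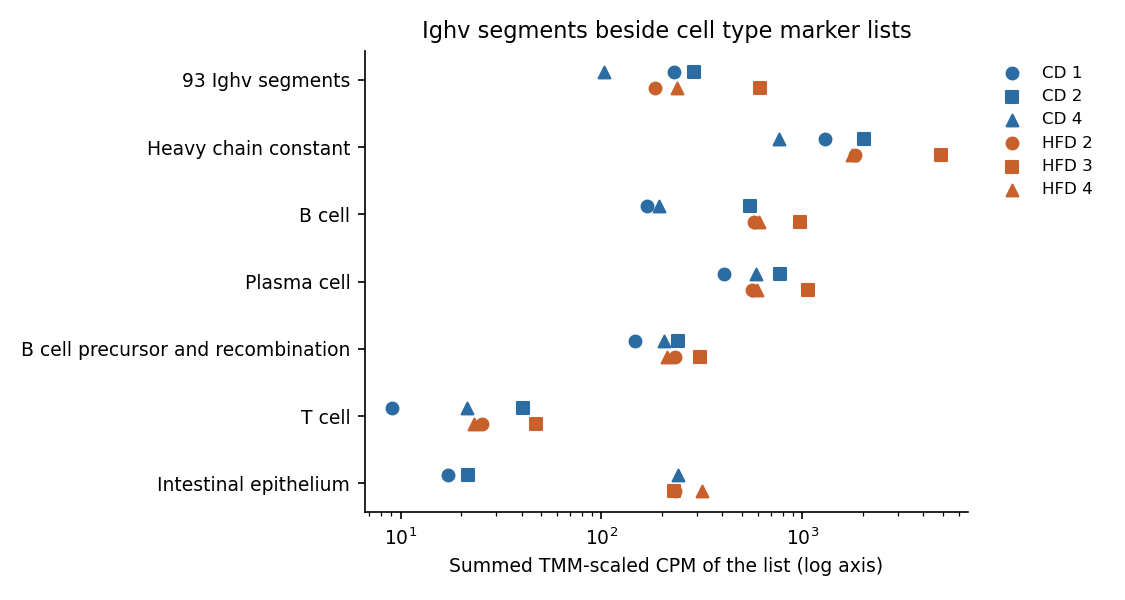
Summed TMM-scaled CPM (horizontal log axis) of the 93 Ighv segments and of 6 marker lists, with 1 point per library, blue for CD and orange for HFD. The Ighv sums of the groups overlap. The B cell list is lowest in CD 1 and CD 4, and CD 2 (550 CPM) lies just under the lowest HFD library, HFD 2 (574 CPM). The intestinal list is near 20 CPM only in CD 1 and CD 2 (17.2 and 21.7), with the points of HFD 2 and HFD 3 on top of each other.

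Of the 93 segments 83 passed the filter on low counts and were tested for a difference between HFD and CD with edgeR's quasi-likelihood fit across 19831 genes. A segment can pass through the group in which it is high, so counts over the 83 are descriptions. No segment was called at an adjusted p under 0.05 (0 of 83, where 0% of all genes were called), and the smallest adjusted p of edgeR was 0.466. At an unadjusted edgeR p under 0.05 there were 14 segments higher in HFD (16.9%, against 2.46% of all genes) and 1 lower (1.2%, against 7.2%). DESeq2 called 9 segments higher and 0 lower, where it called 0.535% of all genes higher and 1.11% lower, and limma on log2(FPKM + 1) called 2 higher (2.47%, against 0.0602% of all genes) and 0 lower, where it called 0.00669% of all genes lower.

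The fitted log2 fold change was positive for 56 of the 83 segments (67.5%, against 47.5% of all genes) and negative for 27 (32.5%, against 52.5%), with a median of 0.56 beside -0.03 over all genes. This median was 0.0199 without HFD 3, 0.33 without CD 4 and 1.34 without CD 2. It was -0.10 with the summed Ighv count as library size, where the median of all genes was -0.66. With the intestinal list as covariate it was 1.55, and for CD 4 alone against HFD 1.56. The intestinal list was low only in CD 1 and CD 2. In both fits the diet difference therefore rests largely on CD 4, the library with the lowest summed Ighv level. The groups did not overlap in CPM for 11 segments higher in HFD (13.3%, against 4.97% of all genes) and 1 lower (1.2%, against 10.2%). Without CD 2 these counts were 27 higher (32.5%, against 17.4% of all genes) and 1 lower (1.2%, against 17.3%), and without HFD 3 they were 11 higher (13.3%, against 7.00%) and 10 lower (12.0%, against 14.0%). Without HFD 4 there were 18 higher (21.7%, against 13.4% of all genes) and 1 lower (1.2%, against 18.4%). Without CD 1, CD 4 or HFD 2 there were 12, 13 and 16 higher (14.5%, 15.7% and 19.3%, against 9.96%, 8.28% and 8.27%) and 3, 4 and 2 lower (3.61%, 4.82% and 2.41%, against 17.2%, 12.6% and 12.3%).

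Ighv6-6 had the clearest separation. Its counts were 31, 80 and 43 in CD 1, CD 2 and CD 4 and 897, 2120 and 269 in HFD 2, HFD 3 and HFD 4. The lowest HFD library lay well above the highest CD library. The mean level was 0.898 ± 0.234 CPM in CD and 15.7 ± 11.9 CPM in HFD (SD, n = 3), a log2 fold change of 4.12 ± 0.65 (SE). The adjusted p was 0.466 with edgeR, 1.21e-08 with DESeq2 and 0.0135 with limma on log2(FPKM + 1). Leaving out each library in turn kept the log2 fold change between 3.35 and 4.53. Its family partner Ighv6-3 had 291, 1364 and 88 counts in CD 1, CD 2 and CD 4 and 990, 1811 and 694 in HFD 2, HFD 3 and HFD 4, with overlap and a log2 fold change of 0.87 ± 0.78. In mean usage, Ighv6-6 differed by 4.19 percentage points between HFD and CD and Ighv6-3 by 2.03.

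In the Ighv2 family, known as Q52, Ighv2-9-1 had 21, 40 and 24 counts in CD 1, CD 2 and CD 4 and 157, 229 and 153 in HFD 2, HFD 3 and HFD 4. Its HFD levels were close together, and the groups were apart. The log2 fold change was 2.46 ± 0.40 (SE), with an adjusted p of 0.466 with edgeR, 1.27e-05 with DESeq2 and 0.0414 with limma on log2(FPKM + 1). Ighv2-9 had 35, 67 and 71 counts in CD 1, CD 2 and CD 4 and 400, 519 and 110 in HFD 2, HFD 3 and HFD 4, with no overlap and a log2 fold change of 2.28 ± 0.50. Its adjusted p was 0.466 with edgeR, 0.00465 with DESeq2 and 0.152 with limma on log2(FPKM + 1). Both segments were 94.6% identical to Ighv2-6-8 as their nearest neighbour, and over 99% of their stretches of 100 bases were found in no other Ighv transcript.

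From the Ighv1 family, Ighv1-78 had 13, 57 and 37 counts in CD 1, CD 2 and CD 4 and 501, 224 and 64 in HFD 2, HFD 3 and HFD 4 (log2 fold change 2.67 ± 0.71), and its groups were apart by a narrow margin in CPM (0.831 in CD 2 and 1.28 in HFD 4). Ighv1-59 had 9, 16 and 13 counts in CD and 94, 137 and 19 in HFD (2.39 ± 0.68), again with HFD 4 nearest the CD libraries. Ighv1-76 had 87, 359 and 130 counts in CD and 385, 749 and 696 in HFD (1.61 ± 0.49). The edgeR adjusted p was 0.466 for each of these 3. With DESeq2 the adjusted p was 0.0136 for Ighv1-78, 0.0521 for Ighv1-59 and 0.0602 for Ighv1-76. The other 5 segments that were higher without overlap were Ighv2-3, Ighv2-6, Ighv14-2, Ighv1-52 and Ighv1-82, named because they complete the count. Of these, Ighv1-52 has a near copy, Ighv1-61, at 98.6% identity.

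Ighv9-2 was the single segment that was lower without overlap. It had 127, 44 and 72 counts in CD 1, CD 2 and CD 4 and 12, 39 and 4 in HFD 2, HFD 3 and HFD 4. The highest HFD level, 0.528 CPM in HFD 3, lay just under the lowest CD level, 0.642 CPM in CD 2. The log2 fold change was -2.67 ± 0.89 (SE), with an adjusted p of 0.466 with edgeR and 0.0685 with DESeq2. Ighv12-3 had the lowest fitted value, -4.86 ± 2.34, which rested on CD 1: without that library it was 3.27.

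Ighv14-4 and Ighv5-12 were called by DESeq2 although their groups overlapped. Ighv14-4 was at 1.39 ± 0.09 CPM (SD, n = 3) in CD and at 1.35, 25.6 and 43.8 CPM in HFD 2, HFD 3 and HFD 4 (log2 fold change 4.08 ± 1.06, DESeq2 adjusted p 0.000868). Ighv5-12 was at 22.4 CPM in HFD 2 and at 0.365 to 1.76 CPM in the other 5 libraries (3.30 ± 1.24, DESeq2 adjusted p 0.0434), and without HFD 2 its log2 fold change was 0.63. Ighv1-55 was at 127 CPM in HFD 3 and at 2.72 to 10.3 CPM elsewhere (3.60 ± 1.25, edgeR adjusted p 0.469), and without HFD 3 its log2 fold change was 0.85. In these segments 1 or 2 libraries carried the difference.

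**Figure D4:**
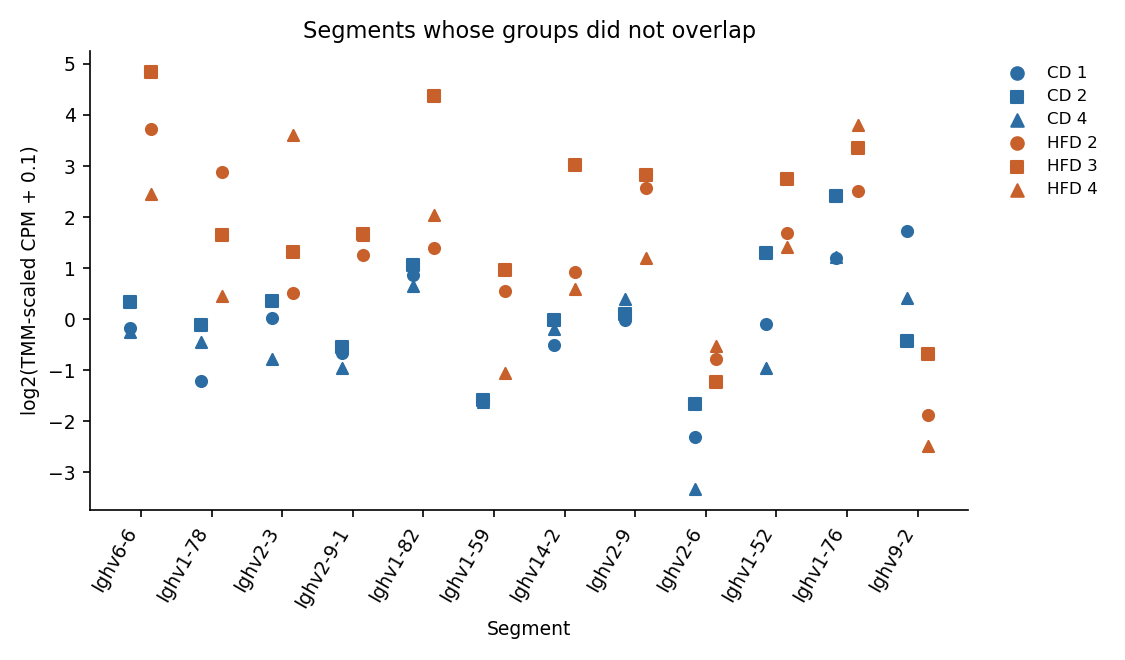
log2(TMM-scaled CPM + 0.1) (vertical axis) of the 12 segments whose groups did not overlap, with 1 point per library, blue for CD and orange for HFD, ordered by fitted fold change. Of these, 11 are higher in HFD, led by Ighv6-6 with 0.741 to 1.17 CPM in CD and 5.37 to 28.7 CPM in HFD, and Ighv9-2 is lower.

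Within the Ighv counts of each library, usage was higher in HFD without overlap for 4 segments (4.3%, where 0.817% of all genes, taken relative to the same Ighv sum, were apart and higher) and lower for 12 (12.9%, against 6.45%). An exact two-sided permutation test of 3 against 3 libraries cannot go below p = 0.1, the value each of these 16 reached. The percentages over all genes are not a like background for usage. The Ighv sum was on average higher in HFD (11615 counts in CD, 23252 in HFD, with overlap), which lowers other genes relative to it. With this sum as library size the median log2 fold change was -0.66 over all genes and -0.10 over the tested segments. The 4 higher were Ighv6-6, with 0.342%, 0.403% and 0.722% in CD 1, CD 2 and CD 4 and 7.08%, 4.69% and 2.26% in HFD 2, HFD 3 and HFD 4, and Ighv2-9-1, Ighv1-52 and Ighv1-23, of which the last had 48 counts in all. Ighv1-52 and Ighv1-23 were 98.6% and 98.0% identical to another segment, so their values are uncertain, as described below. The 12 lower included Ighv1-26, with 15.7%, 5.68% and 6.77% in CD and 4.65%, 3.94% and 4.93% in HFD, and Ighv5-17, with 5.53%, 2.59% and 4.05% in CD and 1.32%, 1.49% and 0.721% in HFD. They further included Ighv8-12, with 1.52%, 5.72% and 0.923% in CD and 0.482%, 0.416% and 0.285% in HFD, and Ighv9-2. The CPM of Ighv1-26, Ighv5-17 and Ighv8-12 overlapped between groups. With the summed Ighv count as library size, where edgeR called 0.852% of all genes, it called Ighv14-4 higher (3.28, adjusted p 0.0438) and Ighv12-3 lower (-5.23, adjusted p 0.00022, a value that rests on CD 1).

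Near-identical segments limit the counts of single members. The nearest neighbour was at 98% identity or more for 11 segments. Ighv1-62-2 and Ighv1-71 were 99.7% identical, and only 3.08% of the stretches of 100 bases of each were found in no other Ighv transcript. Ighv1-72, known as V186.2 from the response of this strain to nitrophenyl haptens, was 99.1% identical to Ighv1-62-3, and the pair had 117 and 9 counts in CD 1 and 300 and 47 in HFD 3. Ighv1-52 was 98.6% identical to Ighv1-61, which had 43, 114 and 7 counts in CD 1, CD 2 and CD 4 and 166, 164 and 20 in HFD 2, HFD 3 and HFD 4. Ighv1-20 and Ighv1-37, also 98.6% identical, were counted in different libraries, Ighv1-20 with 918 counts in HFD 3 and 151 in HFD 2 and Ighv1-37 with 194 in CD 1. The limit of 98% does not mark all segments with shared stretches. Ighv2-2 and Ighv2-4, at 97.7% identity, had 75.7% of their stretches of 100 bases in no other Ighv transcript. This was 81.0% for Ighv1-4 and Ighv1-7 and 82.9% for Ighv1-75 and Ighv1-84. Among the 11, Ighv1-15 and Ighv1-23 shared no such stretch. How the counting divided reads between similar segments is not given in the sources used here. The values of the 11 segments, and of others that share stretches, are therefore uncertain.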

How the data were processed

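The 6 libraries of poly(A)-selected RNA (3 CD, 3 HFD) were read as paired ends with molecular identifiers in the adapters. The deposited table gives a whole-number count per gene and library, made by the authors, and an FPKM value, which the authors scaled per kilobase of transcript and by library size. HISAT2 2.0.4 and StringTie 1.3.4d are listed by the submitters' notes on processing, next to UMI-tools and cutadapt 1.9, whereas the study's methods name STAR and featureCounts on GRCm38, and the route to the counts is not settled, nor whether identifiers were collapsed or strand was used.

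Counts of all genes were filtered (filterByExpr, minimum count 10), scaled by TMM and tested with edgeR 4.0.16 (quasi-likelihood, Benjamini-Hochberg over all tested genes) in R 4.3.3, with no covariate. DESeq2 1.42.0, limma 3.58.1 on log2(FPKM + 1), other scalings, filters and sample sets were alternatives. The edgeR code was tested on simulated data. Usage was the share within the members' summed count, with exact permutation tests for single segments. No 2 libraries were duplicates. Sequences came from GENCODE M21, whose coordinates equal those of the table for all 93 segments, trimmed to coding bases.

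The named segments were the 10 with the largest summed count, the 3 leaders of each library, in each direction the 5 with the smallest edgeR p without overlap, Ighv6-6 and Ighv2-9-1, the leader of each family and those nearest the limit of 30. Others are named as the only members of a count or as near copies, and Ighv1-9, Ighv5-2 and Ighv1-72 were added after their values were seen. Members, lists and tests were chosen with earlier results of these data known. Lists covered B cells, plasma cells, precursors, constant regions, germinal centre (7 genes, median log2 fold change 0.09), T cells, intestine and bone.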

Additional observations from a re-analysis of the deposited data

How the results depend on the processing

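The number of segments called by edgeR was 0 under DESeq2 size factors, upper quartile scaling, both other count filters, the intestinal covariate, CD 4 alone against HFD and each library left out (0 to 0). It was 2 with the summed Ighv count as library size, 9 with DESeq2, and 2 and 2 with limma on log2(FPKM + 1) and log2(FPKM + 0.1), fits that called 0.852%, 1.65%, 0.0669% and 0.0469% of all genes. The median log2 fold change of the tested segments ran from 0.0199 to 1.34 with a library left out, and was 1.55 with the intestinal list as covariate and 1.56 for CD 4 against HFD, where the lone CD library is assumed to vary like the others. The covariate fit and the fit on CD 4 both rest largely on CD 4 as control, so they are not separate checks. The log2 ratio of the summed level ran from 0.03 to 1.05 with a library left out and was 1.01 without TMM scaling, and the difference in effective segments ran from -13.1 to 3.04. The latter was -0.63 without the leading segments, an alternative chosen after seeing the data, as was the scaling. CD and HFD share only the numbers 2 and 4, whose deviations over all genes correlated at -0.25 and 0.25. These values of opposite sign cannot settle whether the numbers pair the samples. With the replicate number as a block, 0 segments were called, the median was -0.19, and Ighv9-3 was at -1.14 and Ighv12-3 at 3.06. In that fit CD 1 and HFD 3 have no partner of the same number, so the diet term rested on CD 2, CD 4, HFD 2 and HFD 4. Little is left to measure the spread, so the 0 calls of that fit say little. Ighv12-3 was at 3.27 when CD 1 was left out. The sign turned for 6 of 18 named segments, of which edgeR called only Ighv12-3, and that with the summed Ighv count as library size, and the cause was not tested. Ighv9-3 (0.06) was at -0.82 relative to the Ighv sum and from -1.24 to 0.99 with a library left out. Ighv3-6 (-0.19) was at 0.0598 and 0.0914 with limma and from -0.93 to 0.17 with a library left out. Ighv1-26 (-0.42) was at 0.0222 and 0.0252 with limma, 1.11 with the intestinal covariate, 1.09 for CD 4 against HFD and from -0.97 to 0.35 with a library left out. Ighv12-3 was at 0.33 with limma on log2(FPKM + 0.1), 6.75 with the intestinal covariate, 8.87 for CD 4 against HFD (CD 4 at 0, so no bound) and from -5.44 to 3.27 with a library left out. Ighv5-17 (-0.87) was at 0.17 with the intestinal covariate and 0.0927 for CD 4 against HFD, and Ighv8-12 (-2.35) at 0.55 and 0.54. The 10 untested segments had summed counts of 31 to 226 and reached 10 counts in at most 3 libraries.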

Other observations

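The light chains of CD 1 also stood apart. Lambda segments made up 36.2% of its light chain V counts, against 3.87% to 6.01% in the other 5 libraries, and Iglv1 held 8775 counts, 99.1% of the Iglv counts of CD 1. Among kappa segments the leader was Igkv5-43 in CD 1 (34.6% of Igkv counts), Igkv10-96 in CD 2 (7.66%), Igkv1-110 in CD 4 (6.07%), Igkv1-117 in HFD 2 (18.2%), Igkv5-48 in HFD 3 (13.0%) and Igkv6-20 in HFD 4 (15.9%), so the kappa leader differed between all 6 libraries, as the heavy chain leader did. The effective number of kappa segments was 18.6, 46.1 and 50.4 in CD 1, CD 2 and CD 4 and 34.6, 36.8 and 32.2 in HFD 2, HFD 3 and HFD 4. The share of Ighj4 among the 4 heavy chain J segments was 52.7%, 47.8% and 20.6% in CD 1, CD 2 and CD 4 and 22.8%, 22.9% and 23.4% in HFD 2, HFD 3 and HFD 4. The heavy chain D segments had at most 13 counts in a library.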
